A study of Mus musculus with 72 samples.

Results

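Distal sites bound by NANOG without a detected OCT4 or SOX2 peak were examined in mouse embryonic stem cells (ESCs) with and without the nucleosome binding proteins HMGN1 and HMGN2. Chromatin of Hmgn1+/+n2+/+ (WT) and Hmgn1-/-n2-/- (DKO) ESC lines of strain C57BL/6 was immunoprecipitated with an antibody to NANOG and sequenced, with 2 biological replicates per genotype, and the deposited data are a list of peaks for each library. The DKO cells lack both HMGN proteins throughout, and how many independent lines or clones stand behind the replicates is not given in the sources used here. A site was included when a NANOG peak of WT replicate 1 overlapped a peak of WT replicate 2, lay more than 1000 bp from every start of a protein-coding transcript (GENCODE vM1, genome build mm9), overlapped no OCT4 or SOX2 peak of any WT or DKO library, and overlapped no CTCF peak of either WT library. Of the 52307 NANOG peaks of WT replicate 1, 44748 overlapped a peak of WT replicate 2, 41434 of these were distal, and 17365 (33.2% of all) met every criterion. The members were selected on the WT NANOG peaks and on the peaks of OCT4, SOX2 and CTCF, so the NANOG values in WT are a description. The DKO NANOG lists were not used in the choice.

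NANOG is a homeodomain transcription factor that helps to hold mouse ESCs in the naive pluripotent state. It often binds enhancers together with OCT4, a POU factor, and SOX2, an HMG box factor, which can recognise adjoining DNA letters as a pair. HMGN1 and HMGN2 bind nucleosomes without sequence preference and locate to active enhancers and promoters, so the comparison asks whether NANOG stays, once the HMGNs are gone, at distal sites where no peak of its usual partners was called. The OCT4 and SOX2 lists of WT are much shorter than those of NANOG, so a missing peak does not show that the partner was absent, and no enhancer mark of ESCs was analysed here. The ESC label was checked by peaks within 5000 bp of known pluripotency genes. NANOG peaks were found in each of the 4 libraries near Esrrb (25 to 28 peaks), Sox2 (7 to 8), Pou5f1 (4 to 6), Nanog (3 to 5) and Zfp42 (3), and OCT4 and SOX2 peaks in each of their libraries near the first 4 of these genes, while near Zfp42 only 1 of the 8 OCT4 and SOX2 libraries had a peak.

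The 9 windows of 121 bases centred on the WT replicate 1 summit show the kinds of site described below, on the plus strand of mm9, with matches to the searched motifs in capitals. The Hoxd3 and Pgs1 windows are 2 of the strongest sites and kept NANOG peaks in both DKO libraries. The Zfp536 and Klf3 windows belong to strong sites with no DKO peak. The Nt5m, Adora2b, Rhpn2 and Kcnmb2 windows had fewer NANOG fragments in DKO, and the Tshz3 window had more.
Hoxd3 intron: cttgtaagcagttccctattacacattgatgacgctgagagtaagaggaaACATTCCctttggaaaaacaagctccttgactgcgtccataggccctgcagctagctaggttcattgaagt
Pgs1 intron: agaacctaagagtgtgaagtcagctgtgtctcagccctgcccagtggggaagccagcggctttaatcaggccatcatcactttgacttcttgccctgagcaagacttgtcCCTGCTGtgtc
Zfp536 intron: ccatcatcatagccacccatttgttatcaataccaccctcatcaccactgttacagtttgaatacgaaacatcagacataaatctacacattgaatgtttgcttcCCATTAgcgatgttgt
Klf3: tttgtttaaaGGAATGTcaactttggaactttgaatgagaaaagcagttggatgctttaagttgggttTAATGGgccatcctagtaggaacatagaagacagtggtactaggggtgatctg
Nt5m: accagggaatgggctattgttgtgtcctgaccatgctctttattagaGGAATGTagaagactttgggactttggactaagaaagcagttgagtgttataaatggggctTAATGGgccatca
Adora2b: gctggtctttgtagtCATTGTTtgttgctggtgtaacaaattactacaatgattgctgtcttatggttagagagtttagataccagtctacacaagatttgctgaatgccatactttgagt
Rhpn2 intron: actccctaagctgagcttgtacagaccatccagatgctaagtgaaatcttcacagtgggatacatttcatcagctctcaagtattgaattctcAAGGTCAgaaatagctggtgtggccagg
Tshz3: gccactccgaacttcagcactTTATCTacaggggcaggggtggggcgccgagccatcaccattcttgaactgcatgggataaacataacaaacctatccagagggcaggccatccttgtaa
Kcnmb2: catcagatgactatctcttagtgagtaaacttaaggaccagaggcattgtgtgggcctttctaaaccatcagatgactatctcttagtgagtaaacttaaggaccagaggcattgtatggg
The windows lie at chr2:74551736-74551856 (Hoxd3), chr11:117871237-117871357 (Pgs1), chr7:38361538-38361658 (Zfp536), chr5:65116421-65116541 (Klf3), chr11:59700594-59700714 (Nt5m), chr11:62039135-62039255 (Adora2b), chr7:36152207-36152327 (Rhpn2), chr7:37388923-37389043 (Tshz3) and chr3:31607871-31607991 (Kcnmb2). The capitals mark TEAD letters in the Hoxd3 window, ZIC in Pgs1, NANOG in Zfp536, TEAD and then NANOG in Klf3 and in Nt5m, SOX in Adora2b, ESRRB in Rhpn2 and GATA in Tshz3, and the Kcnmb2 window held none of the motifs. The Klf3 and Nt5m windows, on chromosomes 5 and 11, could be aligned over 79 positions of which 62 (78.5%) were identical, the highest alignment score among the 253 pairs of the 23 windows written out. The Kcnmb2 window is a tandem copy of itself: shifted by 66 bases, 54 of 55 compared bases were identical.

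The NANOG lists held 52307 and 53524 peaks in WT and 62697 and 64486 in DKO, with median fold enrichments of 7.90 and 7.76 in WT and 7.17 and 7.02 in DKO. Fold enrichment is the caller's ratio of the pileup of ChIP fragments at the summit to the local background estimated from input DNA, each with 1 added. Together with the -log10 p of the same peak it fixes both parts, and a whole number of stacked fragments could be solved for every NANOG peak of the 4 libraries. The median was 33, 35, 35 and 42 fragments (WT 1, WT 2, DKO 1, DKO 2). The lowest background, which the caller sets from the genome-wide mean of the input, was 1.46 in both WT libraries and 1.99 in both DKO libraries. Scaled by each library's own factor, this gave 1.63 and 1.77 ChIP fragments per genomic position in WT and 2.01 and 2.49 in DKO. The solution assumes that the caller scaled each ChIP library to its input. If so, the DKO ChIP and input libraries both had more fragments per position than the WT ones, and the DKO lists were longer. Depth here means fragments per position, which also rises with fragment length, and fragment length is not in the lists. The input reads themselves were not analysed here. Apart from the scaled lists given below, the part of depth in the results was not tested.

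Most of these sites kept NANOG in DKO, and the share rose with the strength of the site. NANOG peaks of DKO replicate 1 overlapped 14797 of the 17365 sites (85.2%) and those of DKO replicate 2 overlapped 15172 (87.4%), a mean of 86.3% ± 1.53 (SD, n = 2). Both DKO libraries had a peak at 14004 sites (80.6%), 1 of the 2 at 1961 (11.3%), and neither at 1400 (8.06%). Strength was taken as the mean -log10 p of the WT peaks, in 10 classes of 1736 or 1737 sites. In the weakest class, with a median -log10 p of 8.15, the share found in DKO was 63.8% and 70.6%. In class 5 it was 86.0% and 87.6%, in class 7 94.6% and 95.9%, and in the strongest class, with a median -log10 p of 44.4, 99.3% in both libraries. The weakest 3 classes held 960 of the 1400 sites with no DKO peak, and the strongest 3 held 32. With strength by fold enrichment instead, the weakest class was found in 81.9% of cases on average, in place of 67.2%, and the gap between the strongest and weakest classes was 17.1 percentage points in place of 32.0. Counted by fragments, the class of 1737 sites with the fewest WT fragments (median 17.5) was found in DKO in 49.7% and 57.5% of cases, and the class with the most (median 60) in 99.4% and 99.3%.

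**Figure D1:**
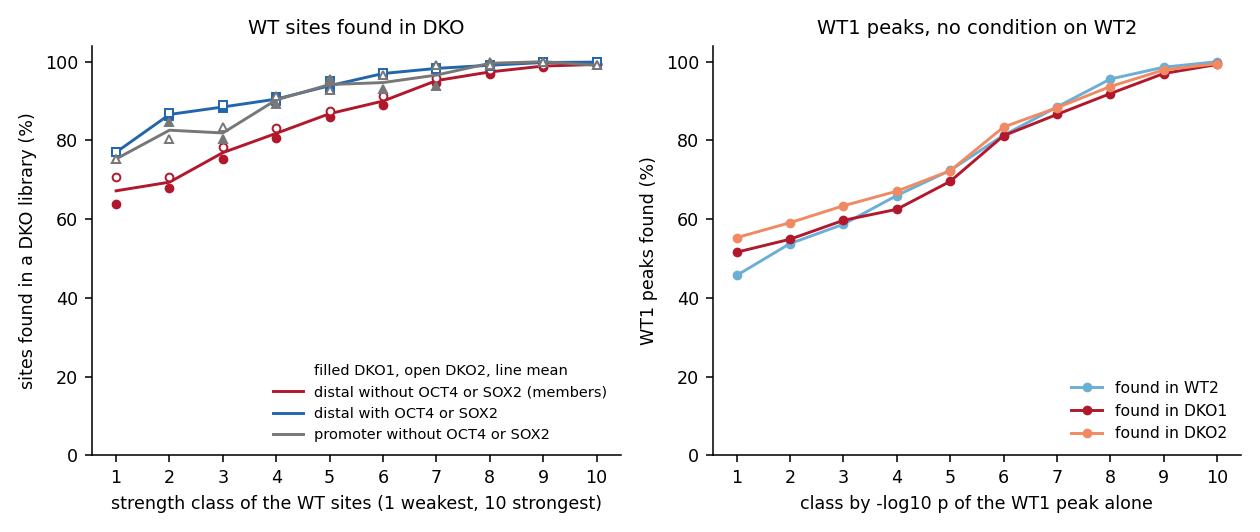
Share of NANOG sites found in DKO by strength. Left, sites called in both WT replicates in the members' 10 strength classes on the x axis and the percentage overlapped by a DKO peak on the y axis (filled symbols DKO1, open symbols DKO2, lines their mean). Right, WT1 peaks of the same kind, classed by their own -log10 p, found in WT2, DKO1 or DKO2. The members rise from a mean of 67.2% to 99.3%, below the sites with OCT4 or SOX2 in each class, and on the right the weakest class is found in 45.7%, 51.6% and 55.3% of cases in WT2, DKO1 and DKO2, from lists of unequal length that are longer in DKO.

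Weak peaks were also often missing from the other replicate of the same genotype. When the condition on WT replicate 2 was dropped, 22830 peaks of WT replicate 1 met the other criteria. WT replicate 2 had a peak at 76.1% of them, DKO replicate 1 at 75.4% and DKO replicate 2 at 78.0%. In the weakest of 10 classes of these peaks by their own -log10 p the shares were 45.7%, 51.6% and 55.3%, and in class 8 they were 95.6%, 91.9% and 93.7%. From DKO replicate 1, the weakest class was found in 50.2% of cases in DKO replicate 2 and in 28.3% and 29.9% in the WT libraries. The DKO lists are longer and offer more chances of overlap, so the comparison was repeated with the 52307 top peaks of each library. WT replicate 1 peaks were then found in WT replicate 2 in 74.8% of cases and in the DKO libraries in 66.5% and 67.3%. Starting from DKO replicate 1, the shares were 76.9% in DKO replicate 2 and 69.5% and 69.7% in the WT libraries. At equal length, the libraries of one genotype thus shared 74.8% to 76.9% of these peaks and the libraries of different genotypes 66.5% to 70.0%, in either direction.

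Starting instead from DKO, both of its libraries had a peak at 22323 sites under the same criteria. WT replicate 1 had a peak at 70.3% and WT replicate 2 at 71.8% of them, and 4468 (20%) had none in either WT library, against the 1400 sites (8.06%) with no peak in DKO. Both sets were weak: the median -log10 p was 11.5 for the DKO sites without a WT peak and 18.6 for those with one, and 10.8 for the WT sites without a DKO peak and 16.3 for those with one. With the DKO pileups and backgrounds scaled linearly to the WT input depth and every list limited to a scaled -log10 p of at least 10, 65.6% and 66.6% of WT replicate 1 peaks were found in DKO, and 68.6% of DKO replicate 1 peaks in each WT library. Within a genotype these shares were 73.9% and 76.7%.

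Sites with OCT4 or SOX2 were retained more often at a given strength. The 22590 distal NANOG sites called in both WT libraries that overlapped an OCT4 or SOX2 peak were found in 98.0% and 98.1% of cases in the DKO libraries, and they were stronger, with a median -log10 p of 43.9 against 15.7. In the weakest of the strength classes, 77% of the 461 such sites were found in each DKO library, against 63.8% and 70.6% of the sites without OCT4 or SOX2. In class 5 the shares were 92.8% and 95% against 86.0% and 87.6%. With each strength class given the same weight, 92.9% and 93.2% of the sites with OCT4 or SOX2 were found in DKO, against 85.2% and 87.4%. The 1561 promoter NANOG sites without OCT4 or SOX2 lay between, at 91.1% and 91.7% on the same weighting. Sites are not replicates and no test was run over them. The rule itself bears on this gap, since a site with an OCT4 or SOX2 peak in a DKO library was excluded, and the DKO lists of OCT4 (26742 and 30864 peaks) were longer than the WT lists (11140 and 12627). With OCT4 and SOX2 peaks of the WT libraries alone, 25923 sites qualified, and 89.1% and 90.5% were found in DKO, against 98.6% and 98.8% of the 14032 sites with OCT4 or SOX2 in WT. In classes of equal weight these became 87.0% and 88.8% against 91.1% and 92.0%. The 8558 sites with OCT4 or SOX2 in the DKO lists alone stood at 93.7% in each DKO library on this weighting.

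The DKO libraries held more distal NANOG peaks without OCT4, SOX2 or CTCF than the WT libraries. In this class the order of the genotypes turned when the lists were scaled for depth. The lists contained 22830 and 23190 such peaks in WT and 28040 and 29471 in DKO, or 23010 ± 255 and 28756 ± 1012 (SD, n = 2 each), a log2 difference of 0.32. The groups did not overlap, and the exact two-sided permutation test gave p = 0.333, the smallest p that 2 against 2 libraries allow. NANOG peaks outside the class differed by 0.22 on the log2 scale. With DKO scaled to the WT input depth and a scaled -log10 p of at least 10, 17087 and 16699 peaks remained in WT and 16142 and 16171 in DKO, a log2 difference of -0.06 (exact permutation p = 0.333), whereas the same limit without scaling left a difference of 0.37. Over all NANOG peaks, the same scaling and limit left 43682 and 43507 in WT and 44227 and 44152 in DKO, so the order did not turn there. This scaling was chosen after the values were seen and rests on the same assumption about the caller.

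**Figure D2:**
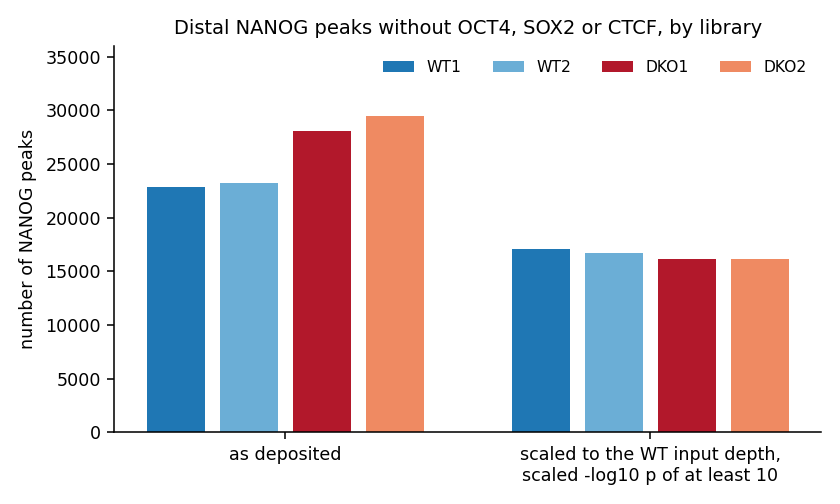
Number of distal NANOG peaks without OCT4, SOX2 or CTCF in each library, on the y axis. Left, the deposited lists, with 28040 and 29471 peaks in DKO against 22830 and 23190 in WT. Right, after linear scaling of the DKO pileups to the WT input depth, with 16142 and 16171 against 17087 and 16699.

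The fold enrichment of the sites was more alike within a genotype than between genotypes, and the local background showed the same division. The labels list 1 ESC input and 1 paired-end ESC input per genotype, and which input served which list is not given in the sources used here. Both replicates of a genotype may thus have been called against the same input, in which case the background, the denominator of the fold enrichment, is not replicated and genotype and input cannot be told apart in it. Over the 14004 sites called in both DKO libraries, the SD of the log2 difference in fold enrichment was 0.40 between the WT replicates and 0.37 between the DKO replicates, but 0.60 to 0.61 between any WT and any DKO library. For the background the SD was 0.27 and 0.24 within and 0.65 between genotypes. For the fragments themselves it was 0.35 and 0.33 within and 0.40 to 0.42 between. Over the 13991 merged sites that held a member and had a peak in all 4 libraries, the background was equal within 0.01 at 56.1% of sites in the WT pair, at 49.4% in the DKO pair and at 4.07% between WT replicate 1 and DKO replicate 1. The part of the background in the fold enrichment calls was not tested beyond the values given with them below.

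**Figure D3:**
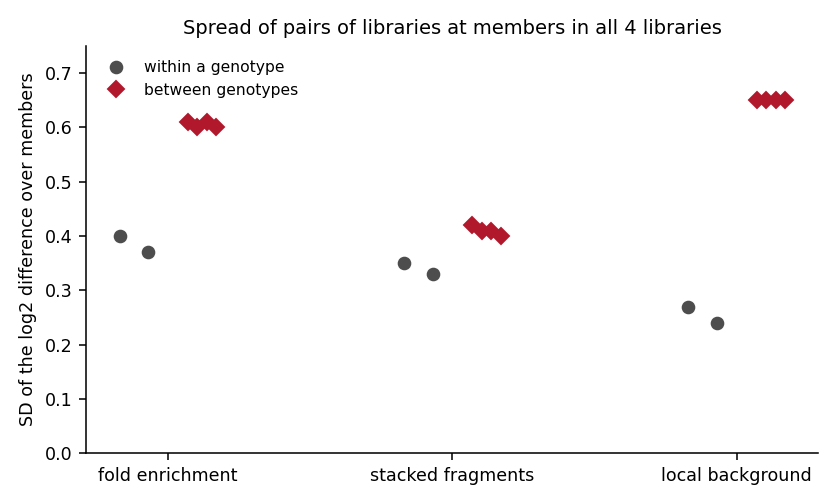
Spread between pairs of libraries at the 14004 members called in all 4. The y axis is the SD over members of the log2 difference between 2 libraries, for fold enrichment, stacked fragments and local background, with circles for the 2 pairs within a genotype and diamonds for the 4 pairs between genotypes. Each measure spreads more between genotypes than within, and between genotypes the fragments spread least.

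By fold enrichment, sites passed the test in both directions. Limma was fitted to the log2 fold enrichment, centred on each library's median, at the 39762 NANOG sites with a peak in all 4 libraries, with an adjusted p (Benjamini-Hochberg) under 0.05 as the threshold. Of the 13991 tested sites with a member, 1150 (8.22%) were higher and 1779 (12.7%) lower in DKO, against 11.5% higher and 12.9% lower over all NANOG sites tested. The 3298 of 17365 members whose merged site lacked a peak in a DKO library were not tested. Losses of that kind could thus not be called lower, here or by fragments below. Without DKO replicate 1 or without DKO replicate 2, limma called 0 sites in either direction (3780 and 3789 had an unadjusted p under 0.05), with smallest adjusted p values of 0.0514 and 0.0501. In these fits the spread comes from the WT pair alone and the lone DKO library is assumed to vary like it, and the differences themselves moved little, such as at the Rhpn2 site from -2.49 to -2.59 and -2.38 on the log2 scale. With -log10 p as the measure limma called 0 higher and 2 lower (3410 had an unadjusted p under 0.05). Where both replicates share an input, the replicate error of this test leaves out the variation between inputs. The median log2 difference after centring was -0.07 at these sites and -0.03 over all, and before centring it was -0.02 and 0.02. The calls moved with the background. At the 1779 lower sites the median background was 2.14 in WT and 5.78 in DKO. The median fragments there, not centred, were 35 and 38 in WT and 35 and 44 in DKO. At the 1150 higher sites the background was 5 in WT and 3.15 in DKO, with 31 and 34 fragments in WT and 43 and 52 in DKO. At the sites called neither way the background was 2.72 in WT and 3.75 in DKO, with 30 and 32 fragments in WT and 35 and 43 in DKO. Across the 13991 sites the log2 change in fold enrichment had Pearson's r = -0.84 with the log2 change in background, which is its denominator, and r = 0.41 with the change in fragments. These correlations run across sites that share 4 libraries and are given as a description.

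With the stacked fragments in place of the fold enrichment, an alternative chosen after the background was seen, the same limma test called 11 of the 13991 sites: 2 higher (0.0143%) and 9 lower (0.0643%), against 0.0151% and 0.0478% of all NANOG sites tested. Of the 11, 9 were also called by fold enrichment in the same direction. The median log2 difference in fragments was -0.05 at these sites and -0.03 over all, with a median SE of 0.17, and 2479 of the sites had an unadjusted p under 0.05. All log2 differences in fragments are after centring each library on its median over the tested sites, which holds the value over all near 0. Before centring, the median fragments at these sites were 30 and 33 in WT and 35 and 44 in DKO. When the sites were divided into 10 classes by their change in background, the median log2 change in fold enrichment ran from 0.74 to -0.84, and that in fragments from -0.12 to 0.03. In the class with the largest rise in background, 964 of 1400 sites were called lower by fold enrichment, and 1 site was called, as higher, by fragments.

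**Figure D4:**
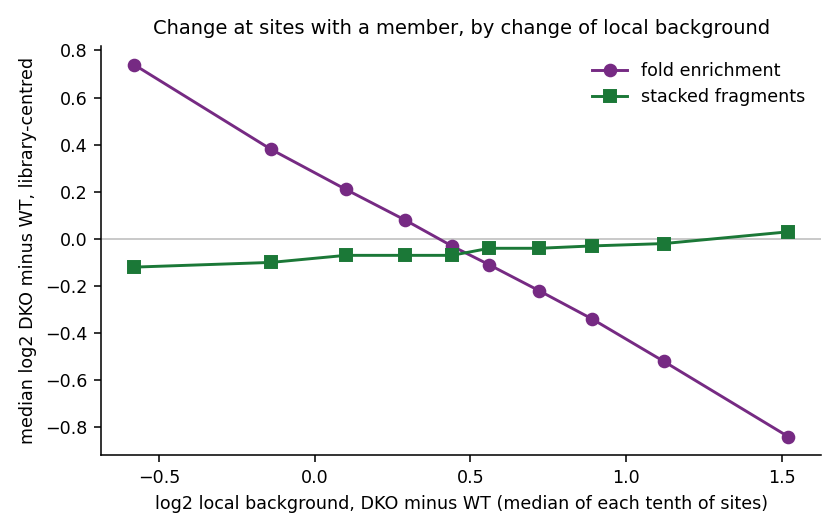
Change between genotypes at the 13991 sites with a member, by the change in local background. The x axis is the median log2 DKO minus WT of the background in each of 10 classes of the sites and the y axis the median library-centred log2 difference, for fold enrichment (circles) and stacked fragments (squares). Fold enrichment falls from 0.74 to -0.84 while the fragments stay between -0.12 and 0.03.

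The sites called by fragments include some of the strong sites of the class. The test picked them for a difference, so separate WT and DKO values at these sites follow from the choice. With a replicate block in the fit limma called 0 of them (2421 sites with a member had an unadjusted p under 0.05), and the smallest adjusted p was 0.0608, the value of the Rhpn2 and Rbfox1 sites. At an intronic site of Rhpn2 on chromosome 7 (chr7:36152083-36152412), the summit held 111 and 108 fragments in WT and 24 and 30 in DKO, a log2 difference of -2.40 (SE 0.15, limma adjusted p = 0.00246). Near Rbfox1, which encodes a neuronal splicing factor (chr16:6479673-6479845), the merged site held 117 and 108 fragments in WT and 19 and 25 in DKO (log2 -2.74, SE 0.16, adjusted p = 0.00197). The member itself there is a side peak of 19 fragments in WT replicate 1. Near Zfp958, a zinc finger gene (chr8:4582757-4583196), the values were 75 and 71 in WT and 17 and 19 in DKO. Near Adora2b, an adenosine receptor gene (chr11:62038991-62039359), they were 105 and 136 in WT and 32 and 48 in DKO. These 4 sites had backgrounds of 1.85 to 3.96 in WT and 2.45 to 4 in DKO. The remaining lower sites lay near Nt5m, 1700011H14Rik, Kcnmb2, Tshz3 and Sgcz, with 38 to 80 fragments in WT and 17 to 39 in DKO.

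The 2 higher sites were weak in WT. Near Dynlt1b, a dynein light chain gene (chr17:6421639-6421807), the summit held 20 and 17 fragments in WT and 70 and 91 in DKO (log2 1.74, SE 0.17, limma adjusted p = 0.0208), with a background of 1.46 in both WT libraries and 6 in both DKO libraries. By fold enrichment this site was not called, at 7.68 and 6.10 in WT and 10 and 10.5 in DKO. Near Tshz3, which encodes a zinc finger homeodomain protein (chr7:37388902-37389066), it was 17 in each WT library and 49 and 73 in DKO (log2 1.44, SE 0.16, adjusted p = 0.0367). A second Tshz3 site, elsewhere in the same region (chr7:37443122-37443833), was among the lower ones, with 51 and 45 fragments in WT and 18 and 27 in DKO. With a library left out, 1 genotype has a lone library that is assumed to vary like the other genotype's pair, which alone gives the spread. Without WT replicate 1 the calls by fragments numbered 19 higher and 29 lower, without WT replicate 2 they were 7 and 31, and without either DKO replicate 0 and 3.

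**Figure D5:**
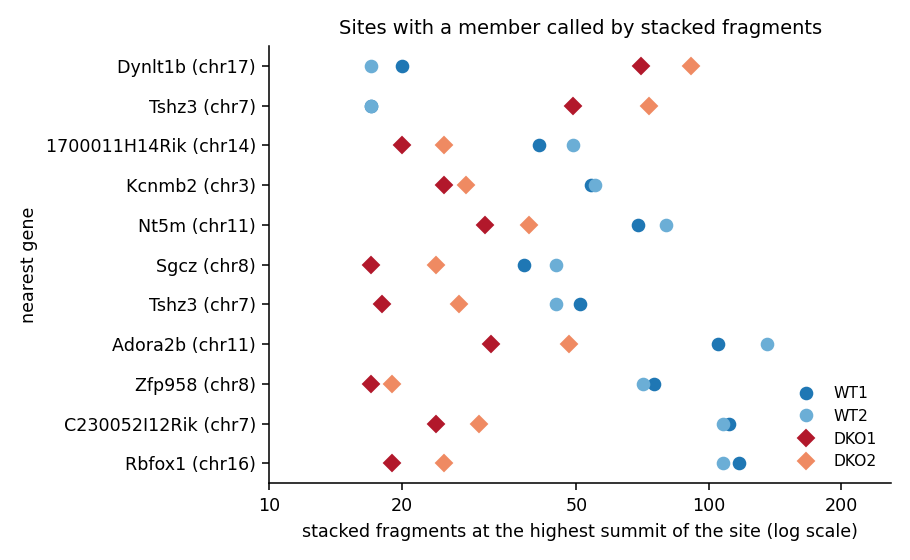
Stacked NANOG fragments at the 11 sites with a member called by limma on fragments. The x axis (log scale) is the number of fragments at the highest summit of the merged site in each library and the y axis the nearest gene with its chromosome, with circles for WT and diamonds for DKO. At 9 sites both WT values lie above both DKO values, and the Dynlt1b site and 1 Tshz3 site have the reverse. This separation follows from choosing the sites by the test.

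The sites with the largest fold enrichment changes illustrate the same division. The largest increase was at an intronic site of Gabrp, a GABA receptor subunit gene (chr11:33463612-33463871), where fold enrichment was 4.94 and 4.64 in WT and 21.1 and 18.8 in DKO (log2 2.01, SE 0.17, limma adjusted p = 0.00558). The fragments there were 54 and 55 in WT and 80 and 88 in DKO (log2 0.25 after centring, adjusted p = 0.469), and the background was 9 in both WT libraries and 2.80 in both DKO libraries. The other 2 largest increases, both on chromosome 18 near Zfp438 and Cplx4, had backgrounds of 8 and 5 in WT and 3.32 and 2.28 in DKO, and neither was called by fragments. Among the largest decreases, the Rbfox1 and Rhpn2 sites were called by both measures. The site near Gm6616 (chr14:48195262-48195647) had fold enrichments of 16.2 and 14.0 in WT and 2.80 and 2.95 in DKO. Its fragments were 58 and 55 in WT and 33 and 43 in DKO (log2 -0.96, limma adjusted p = 0.119), with a background of 2.26 and 2.31 in WT and 11 in both DKO libraries.

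Few strong sites lacked a DKO peak. In the 4 strongest classes, 62 of 6946 sites (0.893%) had none. The strongest was an intronic site of Zfp536, a zinc finger gene (chr7:38361467-38361737), with 68 and 67 WT fragments, a background of 1.70 and 1.68 and fold enrichments of 22.9 and 21.0. A second site, 413314 bp from the nearest Zfp536 start (chr7:37939834-37940095) had 47 and 53 WT fragments and likewise no DKO peak. The others of the 5 strongest were near Gins4, a DNA replication gene (chr8:24336584-24337014, 62 and 55 fragments), in an intron of D8Ertd82e (chr8:37195194-37195518, 50 and 73 fragments), and near Klf3, a Krüppel-like repressor gene (chr5:65116297-65116614, 47 fragments in each WT library). Within each strength class the sites without a DKO peak had fewer fragments and a lower WT background than the sites with one. In the weakest class the median was 17.0 fragments over a background of 2.06 against 20.5 over 3.30, and in class 5 it was 25 over 2.11 against 27 over 2.64. Divided by WT background alone, the lowest of 10 classes (median 1.46) was found in 72.5% and 76.2% of cases in DKO and the highest class (median 5.50) in 96.5% and 97.4%, although their median -log10 p was 14.7 and 14.5. The DKO background at a site without a DKO peak is not in the lists.

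Some of the strong sites without a DKO peak lay close together. Of the 62, 23 fell in 8 windows of 5 Mb that held at least 2 each, among 518 windows with strong sites. The window at 35 to 40 Mb of chromosome 7, singled out after the values were seen, held the 2 Zfp536 sites, the Rhpn2 site and both Tshz3 sites. There 15 of 61 sites of any strength (24.6%) had no DKO peak, against 8.06% of all. The 40 tested sites of the window had a median log2 change in fragments of -0.03, with extremes of -2.40 and 1.44. CTCF sites of the window called in both WT libraries were found in 98.6% and 98.1% of cases in DKO, against 97.2% in each DKO library genome-wide, and the 49 distal NANOG sites with OCT4 or SOX2 there in 95.9% and 98.0%. The window at 35 to 40 Mb of chromosome 8 had 10 of 57 sites without a DKO peak, and that at 45 to 50 Mb had 11 of 59. The window at 85 to 90 Mb of chromosome 15, which held 3 of the strong sites, had 5 of 50 (10%), with a median log2 change in fragments of 0.06.

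The 5 strongest sites of the class had peaks in both DKO libraries. The intronic Hoxd3 site, in a homeobox gene of the Hoxd cluster (chr2:74551590-74551960), held 168 and 146 fragments in WT and 130 and 157 in DKO (log2 -0.51 after centring, SE 0.17, limma adjusted p = 0.222). By fold enrichment it was called lower, at 52.6 and 42.2 in WT and 31.2 and 30.5 in DKO, with a background of 1.88 in WT and 3.15 in DKO in each library. The Pgs1 intronic site (chr11:117871048-117871452) held 161 and 201 fragments in WT and 192 and 224 in DKO. The site near Drd1a, a dopamine receptor gene (chr13:53986963-53987415), held 139 and 152 in WT and 130 and 163 in DKO. The other 2 of the 5, in an intron of Plekhg3 (chr12:77648513-77649281) and near Gm17697 (chr16:9149405-9149615), owe their rank to WT replicate 2. They had 67 and 39 fragments in WT replicate 1 against 439 and 259 in WT replicate 2. The merged sites there hold another WT replicate 1 peak, of 381 and 228 fragments, so that the replicates differ in how the caller split the region. The merged Plekhg3 site held 381 and 439 fragments in WT and 396 and 495 in DKO. The merged Gm17697 site held 228 and 259 in WT and 287 and 325 in DKO, and by fold enrichment it was called lower, at 59 and 61.8 in WT and 42.1 and 38.5 in DKO (log2 -0.63, limma adjusted p = 0.0339).

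Each site was given to the gene with the nearest protein-coding transcript start, and 7933 genes had at least 1. The most were at Rybp, a Polycomb subunit gene (25 sites, 23 in both DKO libraries), followed by the corepressor gene Tle4, Med13l and Tns3 (20 each) and Jarid2 (19). Of 26 naive pluripotency genes in the annotation, 21 had sites, 105 in all, of which 83 (79%) were in both DKO libraries and 11 in neither, against 80.6% and 8.06% of all sites. Esrrb, an orphan nuclear receptor that sustains self-renewal, and Tbx3, a T-box factor, had 14 each. Both DKO libraries had peaks at 11 of the Esrrb and 13 of the Tbx3 sites. At the intronic Esrrb site chr12:87736349-87736675 the fragments were 50 and 45 in WT and 45 and 54 in DKO. The Tbx3 site 1204 bp from a transcript start (chr5:120131964-120132230) held 45 and 51 in WT and 61 and 83 in DKO, not called. By fold enrichment, 2 of 6 Klf4 sites and 2 of 3 Klf2 sites, near Krüppel-like factor genes of the network, were lower, and over the list 5 of 83 tested sites (6.02%) were higher and 15 (18.1%) lower, against 8.22% and 12.7% of the tested sites with a member. At the stronger Klf4 site (chr4:55528837-55529202), 15440 bp from a start, fragments were 63 and 71 in WT and 52 and 66 in DKO, with a background of 2.15 and 2.13 in WT and 5 and 4 in DKO. Klf5 had 6 sites, of which 2 were in both DKO libraries and 2 in neither.

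Socs3, the feedback inhibitor of LIF signalling, had 4 sites, each in both DKO libraries. At its strongest site (chr11:117808330-117808665), fold enrichment was 9.42 and 11.6 in WT and 17.8 and 19.6 in DKO, called higher by limma. The fragments were 62 and 69 in WT and 69 and 94 in DKO (log2 -0.07 after centring), and the background was 5 and 4 in WT and 2.89 in both DKO libraries. Lifr, the LIF receptor gene, had 5 sites in both DKO libraries, 3 of them lower by fold enrichment. At the exonic Lifr site chr15:7109270-7109619, fold enrichment was 10.2 and 8.84 in WT and 6.06 in both DKO libraries, and the fragments were 35 and 33 in WT and 48 and 67 in DKO. Il6st, which encodes the shared LIF receptor subunit gp130, had 1 higher and 1 lower site by fold enrichment and 1 site without a DKO peak. The fragments at the higher site were 42 and 25 in WT and 43 and 46 in DKO, and at the lower site 54 and 70 in WT and 59 and 71 in DKO. Ctnnb1, the beta-catenin gene, had 12 sites, with 11 in both DKO libraries and 1 in neither. An intronic Ctnnb1 site (chr9:120912178-120912370) was lower by fold enrichment, at 6.19 and 5.84 in WT and 3.13 and 3.56 in DKO, with 18 and 20 fragments in WT and 18 and 21 in DKO. Over the list, 85 sites were near 22 of 29 genes, 74 (87.1%) in both DKO libraries, against 80.6% of all sites, and 4 in neither. By fold enrichment 5 of 75 tested (6.67%) were higher and 11 (14.7%) lower, against 8.22% and 12.7% of the tested sites with a member.

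Among early lineage genes, 36 sites lay near 12 of 19 genes, 27 (75%) in both DKO libraries, against 80.6% of all sites, and 5 in neither. By fold enrichment 1 of 27 tested (3.7%) was higher and 3 (11.1%) lower, against 8.22% and 12.7% of the tested sites with a member. Otx2, a homeobox gene of the primed state, had 8 sites, 6 in both DKO libraries. Dnmt3a, a de novo DNA methyltransferase gene, had 3, each in both DKO libraries, and T (Brachyury), a mesoderm factor gene, had 4, with 3 in both. Gata6, a primitive endoderm factor gene, had 5, of which 2 had no DKO peak. Chromatin regulator genes had 49 sites near 13 of 16 genes, 43 (87.8%) in both DKO libraries and 2 in neither, and 3 of 43 tested (6.98%) were higher and 3 lower by fold enrichment, read against the same shares of all. Jarid2, a Polycomb cofactor gene, had 17 of 19 in both, 2 of them higher by fold enrichment. The 2 sites of Eed, a core Polycomb subunit gene, were both lower by fold enrichment, with 34 and 46 fragments in WT and 26 and 45 in DKO at the intronic one (log2 -0.58 after centring) and 32 and 33 in WT and 18 and 31 in DKO at the intergenic one (log2 -0.83). HMG nucleosome binding genes had 4 sites, 2 near Hmgn3, 1 near Hmgn5 and 1 near Hmgn1, and 1 Hmgn3 site was lower by fold enrichment. By fragments, limma called 0 of the 83 naive pluripotency, 27 early lineage, 75 signalling, 43 chromatin regulator and 3 HMG sites tested, where 17 (20.5%), 7 (25.9%), 10 (13.3%), 5 (11.6%) and 1 had an unadjusted p under 0.05, against 2479 (17.7%) of the 13991 tested sites with a member.

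Several motifs were more frequent under the summits than in DNA nearby, which had a lower median GC content (44.8% against 46.8%), and the part of GC content in these shares was not tested. Short strings of letters were searched in windows of 201 bp around each summit, on either strand, and matches of different motifs may overlap. NANOG letters (CCATTA) were in 15% of the 17365 windows, against 7.85% of windows 5000 bp away. Letters of other ESC factors were likewise more frequent than nearby. Those of ESRRB (AAGGTCA) were in 12.1% against 4.01%, and those of KLF factors (GGGNGTGG) in 13.6% against 6.13%. For ZIC (CAGCAGG) the shares were 11.2% and 5.35%, for SOX (AACAATG) 8.37% and 3.36%, and for TCF (CTTTGAT) 7.07% and 3.61%. For TEAD (ACATTCC) they were 5.45% and 2.90%, for the octamer of POU factors (ATGCAAAT) 2.81% and 1.27%, and for STAT (TTCCNGGAA) 1.01% and 0.593%. Letters of GATA factors (AGATAA) were in 12.3% of windows against 11.3%. Those of FOX factors, which include pioneer factors of the endoderm (TGTTTAC), were in 3.86% against 2.94%. AP-1 letters, read by FOS and JUN proteins (TGANTCA), were in 7.82% against 6.01%. Letters of CTCF, whose peaks the rule excluded (GGNGGCAG), were close to the level nearby, in 6.44% against 6.52%. The same held for the E-box of MYC and its relatives (CACGTG), in 2.56% against 2.48%. At distal sites with OCT4 or SOX2 the octamer was in 7.32% and SOX in 10.8% of windows, NANOG in 13.6%, KLF in 10.4% and ESRRB in 11.5%.

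Some motif shares differed between the strength classes and others changed little, and no test was run on them. From the weakest to the strongest class, KLF letters went from 12.7% to 16.7% of windows, TCF from 6.22% to 9.61%, ZIC from 11.2% to 14.0% and NANOG from 13.9% to 16.8%, while SOX went from 9.04% to 5.93%. ESRRB (11.8% and 12.3%), GATA (11.5% and 11.9%), TEAD (6.10% and 5.58%) and STAT (1.04% and 1.27%) were nearly level. Among the 3 weakest classes, the 960 sites with no DKO peak held KLF letters in 10.2% and NANOG letters in 16.0% of windows. The 3164 sites of these classes in both DKO libraries held KLF letters in 14.1% and NANOG letters in 13.4%. The shares were 10.6% and 12.2% for ESRRB, 12.1% and 10.7% for ZIC, 9.58% and 7.81% for SOX, and 4.17% and 6.76% for CTCF letters, without and with DKO peaks. The median GC content was 45.8% in the former and 46.8% in the latter. The 3473 sites with the lowest GC content (median 39.3%) were found in 81.7% and 83.4% of cases in DKO, with a median WT background of 2.15, and the 3473 with the highest (median 54.7%) in 87.9% and 90.1%, with a background of 3. The part of GC content and background in these shares was not tested.

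By position, 9209 sites (53.0%) were intergenic, 7761 (44.7%) intronic and 395 (2.27%) exonic with respect to protein-coding genes. The median distance to a transcript start was 31427 bp, and 34192 bp for distal sites with OCT4 or SOX2. The median distance to the nearest OCT4 or SOX2 peak of any library was 10569 bp. The share with no DKO peak was 5.74% at 1 to 5 kb from a start and 10.8% beyond 100 kb, where the median -log10 p was 16.0 and 14.7. With strength classes of equal weight, 88.1% and 89.6% were found in DKO at 1 to 5 kb, and 82.9% and 84.7% beyond 100 kb. The 3 sites just inside the 1000 bp limit lay 1002 to 1006 bp from the starts of Unc119b, Emid2 and Dnajc5, with a -log10 p of 14.2, 57 and 13.5. The 3 just outside lay 999 to 1000 bp from those of Cd209f, Sox30 and Anxa6, with 20.2, 17.7 and 19. Each of the 6 had peaks in both DKO libraries.

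Peaks of KLF4 and of 6 proteins or marks of other cells were overlapped with the sites, and the further lists of the series were not used here. In ESCs, KLF4 peaks overlapped 619 and 392 sites in WT (3.56% and 2.26%) and 496 and 610 in DKO (2.86% and 3.51%), rising in WT from 1.84% and 1.38% of the weakest class to 9.10% and 6.10% of the strongest. At distal sites with OCT4 or SOX2 the WT shares were 11.7% and 9.69%. The 279 sites with KLF4 in both WT libraries kept KLF4 in 71.3% and 76.7% of cases in DKO, and 276 of them kept NANOG in both DKO libraries, against 80.6% of all sites. The share of all KLF4 sites kept in DKO is not given here, so the KLF4 shares cannot be read as particular to these sites. Sites with KLF4 were stronger: the 732 with KLF4 in either WT library had a median -log10 p of 21.3, against 15.5 without. With strength classes of equal weight, 96.6% and 96% of them were found in DKO, against 84.9% and 87.1%. CTCF peaks appeared at 50 and 58 of the sites in DKO. In other WT cells, H3K27ac of embryonic fibroblasts covered 8.18% and 7.80% of the sites, fibroblast p300 0.685% and 0.489%, Brd3 2.80% and 2.82%, CEBPB 0.783% and 0.795%, and in resting B cells Ikaros 0.806% and 0.95% and Ets1 0.409% and 0.403%. At promoter NANOG sites without OCT4 or SOX2, fibroblast H3K27ac covered 55.3% and 54.7%.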

How the data were processed

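Per the study's methods and the submitters' processing notes, the authors converted reads with bcl2fastq 1.8.4, trimmed them with CutAdapt 1.16, mapped them to mm9 with BWA 07.17, marked duplicates with Picard, took out blacklisted regions, and ran MACS2 2.1.1.20160309 on each library against input to call narrow peaks. Each deposited list gives a fold enrichment, the authors' ratio of summit pileup to local background, and a deposited -log10 p and -log10 q from their Poisson test. The deposited score, a whole number from the caller, was not used in any result. Total reads are not in the lists, so depth is relative and no counting interval was given.

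The peak lists were handled in Python 3.11.15 with numpy 2.4.6, pandas 2.3.3 and scipy 1.17.1. Peaks overlapped at 1 bp or more. NANOG peaks of the 4 libraries overlapping by 1 bp were merged into 79921 sites, of which 39762 had a peak in each library. The highest value of each library in a site was tested with limma 3.58.1 (R 4.3.3), without a pseudocount or replicate block, with Benjamini-Hochberg adjustment. Stacked fragments and background were solved from fold enrichment and -log10 p, using the whole-number multiples of 1 factor per library (0.895, 0.826, 0.989 and 0.799). The steps were tested on simulated data. Motifs and sequences came from the NCBIM37 genome, in which every peak end lay within its chromosome.

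Sites named were the 5 strongest, the 5 strongest without a DKO peak, the 3 largest increases and decreases past the threshold, and those nearest the 1000 bp limit. Sites called by fragments were added after their values were seen. From each gene list came the gene with most sites and genes with a called or absent site, up to 4, and a few others were chosen after their values were seen. Members and lists were chosen with earlier results of these data known. Alternatives covered scaling, measure, filters, overlap, distance, strength and each library left out. The lists of H3K27me3, H1, Irf8, Pax5 and Oct2 were not used here.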

Additional observations from a re-analysis of the deposited data

How the results depend on the processing

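Limits come first from depth: the DKO libraries and their input were deeper, in fragments per position, if the caller scaled ChIP to input. The local background was equal within 0.01 in the 2 replicates at 56.1% of sites in WT and 49.4% in DKO. Thus 1 input may have served both replicates, and the background may have no replication. With 2 against 2 libraries the exact permutation p is 0.333 at the smallest. The alternatives with stacked fragments or with scaling were chosen after seeing the data. The share of sites found in DKO (86.3%) moved to 89.8% with OCT4 and SOX2 peaks of WT alone, 78.0% with lists of equal length, 77.3% with DKO scaled to the WT input depth together with a scaled -log10 p of at least 10 (12633 sites), and 76.7% to 87.4% with a library left out, where leaving out a WT library also drops the condition on the second WT replicate (22830 and 23190 sites). The other alternatives run left it at 85.6% to 86.3%. The strongest class exceeded the weakest by 32.0 percentage points, and this gap was 38.2 with a -log10 p of at least 10, 50.6 with lists of equal length, 54.0 with scaling and that limit, 17.1 and 45.8 with strength by fold enrichment and by fragments, and 28.7 to 47.5 with a library left out. The log2 difference in peak number of the class (0.32) reversed to -0.06 with scaling and that limit, while over all NANOG peaks DKO stayed above WT. For the class it was 0.29 to 0.36 with a library left out.

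The 1150 higher and 1779 lower sites by fold enrichment became 0 and 2 with -log10 p (3410 at an unadjusted p under 0.05), 630 and 951 with a mean fold enrichment of at least 8, where fewer sites (5786) were tested, and 0 to 996 and 0 to 1405 with a library left out. The 0 counts arose without either DKO replicate, where the WT pair alone gives the spread and the lone DKO library is assumed to vary like it. There limma's smallest adjusted p was 0.0514 and 0.0501, 3780 and 3789 sites had an unadjusted p under 0.05, and the log2 difference of the Rhpn2 site was -2.59 and -2.38 against -2.49. By fragments they were 2 and 9, and 19 and 29 without WT replicate 1, 7 and 31 without WT replicate 2, and 0 and 3 without either DKO replicate (1793 and 1931 at an unadjusted p under 0.05). The split of calls without centring was 1316 and 1511. In fold enrichment, deviations of same-numbered replicates had a correlation of 0.02 at these sites. This correlation was not computed for the fragments. With a replicate block, 1190 sites were higher and 1775 lower by fold enrichment, and 0 and 0 by fragments in limma (2421 at an unadjusted p under 0.05, smallest adjusted p 0.0608). Except where a value is given above, the cause was not tested. None of the 6 named sites with the largest changes in fold enrichment turned direction, and the Rbfox1 and Rhpn2 sites each stayed past the threshold in 14 of 17 alternatives. The Gabrp, Cplx4 and Gm6616 sites each did so in 8 of 17, and the Zfp438 site in 6 of 15.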
